A study of Homo sapiens with 10 samples.

Results

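The untreated spheroid library of day 3 was compared with the untreated libraries of day 0 and day 7. The genes described are those with at least 10 reads per 1000000 counted reads (CPM) in the mean of these 3 libraries whose level on day 3 lay on the same side of both other days. Of 18144 genes, 10000 passed that limit, and 6593 of them met the rule, 3741 with the highest level on day 3 (37.4% of the genes that passed) and 2852 with the lowest (28.5%). Direction alone does not single out day 3, since day 0 was the highest or lowest library for 6712 genes and day 7 for 6694. At a ratio of at least 2-fold to both other days, 69 genes were higher on day 3 (0.690%) and 9 were lower (0.0900%). The same limit held day 0 apart for 0 genes in the upward and 32 genes in the downward direction (0.320%), and day 7 for 34 (0.340%) and 4 genes (0.0400%). Against day 0 alone, 176 genes were at least 2-fold higher on day 3 (1.76%) and 17 lower (0.170%), and against day 7 alone 83 were higher (0.830%) and 66 lower (0.660%). The 78 genes of day 3 are the main subject below.

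The samples were spheroids (3D aggregates) of PC-3, an established human cell line from a prostate cancer metastasis that the labels call wild type (WT). The untreated (CTRL) spheroids received medium without drug. CONV-TOPO spheroids received topotecan, a topoisomerase I inhibitor, as a bolus, and EE-TOPO spheroids received it in small additions over an extended exposure. The series has 10 samples, of which 7 libraries were analysed, each the single library of its treatment and day. The 3 samples of day 1 were not used here. The methods speak of an exposure of several weeks, whereas the labels give days 0 to 7, and the labels were followed. The methods also place a partial exchange of medium on day 3 in all wells, and they do not say whether the day 3 spheroids were taken before or after it. With 1 library per day, the day, the exchange of medium and the single preparation cannot be told apart, and no test between days was possible.

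The 7 libraries held an estimated 15.02 M to 22.5 M reads (M, 1000000 reads), and the untreated ones 18.9 M to 19.95 M. Ratios are given with exact 95% intervals that cover counting error only and compare libraries, not conditions. By these intervals, 2001 of the 10000 genes were higher and 1366 lower on day 3 than on both other days. The epithelial markers KRT8, KRT18 and EPCAM were present in every untreated library, with EPCAM at 195 CPM on day 0, 169 on day 3 and 189 on day 7. Of 14 markers of other cells in the table, 8 were at no more than 1.11 CPM, among them DCN and PDGFRB (fibroblasts), PTPRC (leukocytes) and VWF (endothelium) at no more than 0.301 CPM. The other 6 were detected, with COL1A1 at 53.8 to 83.0 CPM, CD68 at 65.7 to 96.3, PECAM1 at 26.3 to 30.1, COL3A1 at 3.26 to 7.77 and LYZ at 3.01 to 3.96. The endothelial receptor KDR had 15.7 CPM on day 0, 29.1 on day 3 and 32.5 on day 7. The sum of the 14 was 169.9 CPM on day 0, 245 on day 3 and 228 on day 7, and its part in the results was not tested. Across all genes, the ratios with the day 7 library followed the genomic span of genes. Genes of at least 300 kb were also lower on day 3 than on day 0, with a median log2 ratio of -0.27. Both points are taken up with the lower genes.

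As background, epithelial tumour cells under stress or stimulation of NF-kB and AP-1, transcription factors that act within minutes to hours, secrete chemokines such as CXCL8 and cytokines such as IL6. Interferons induce a separate set of antiviral genes through factors that include STAT2 and IRF9, and shortage of amino acids or load on the endoplasmic reticulum induces ATF4, DDIT3 and their targets through the integrated stress response. Transcripts for mitosis accumulate in G2 and M phase under repressor and activator complexes that read the CCAAT box and the cell cycle homology element (CHR) of promoters, whereas transcripts for DNA replication accumulate in G1 and S phase.

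Among the 69 genes that were higher on day 3, IL24, PTGS2, IL6, CXCL8 and ATF3 ranked first by the lesser of both ratios. IL24, a cytokine of the IL10 family, had 0.791 CPM on day 0, 60.2 on day 3 and 1.66 on day 7. It was 76.1-fold higher on day 3 than on day 0 (95% counting interval 46.0 to 132) and 36.3-fold higher than on day 7 (25.2 to 52.6), the largest ratio of all genes that passed the limit. PTGS2, the inducible cyclooxygenase of prostaglandin synthesis, had 5.56, 82.6 and 7.405 CPM on days 0, 3 and 7. It was under 10 CPM on both other days and passed the limit on level only through day 3, so that it had to be higher there. IL6 had 1.65, 29.2 and 2.94 CPM, and day 3 was 17.6-fold (12.4 to 25.9) and 9.92-fold (7.52 to 13.3) above the others. CXCL8, the neutrophil-attracting chemokine IL-8, had 170.3, 1600.3 and 173.7 CPM, so that day 3 was 9.39-fold (9.07 to 9.74) and 9.21-fold (8.89 to 9.55) higher. For all 4 genes the day 3 library was also the highest of all 7 libraries, and for CXCL8 the untreated libraries of days 0 and 7 did not differ beyond counting error. ATF3, a stress-induced transcription factor of the ATF/CREB family, followed with 15.1, 124 and 16.6 CPM, an 8.199-fold (7.27 to 9.27) and 7.45-fold (6.62 to 8.40) difference.

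**Figure D1:**
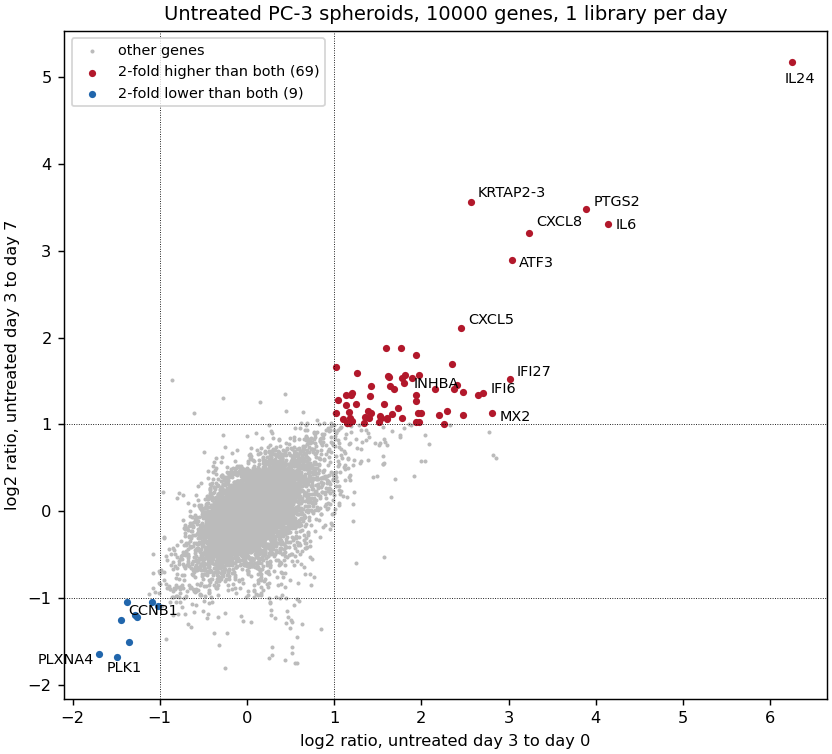
Log2 ratio of the untreated day 3 library to day 0 (horizontal) and to day 7 (vertical) for 10000 genes, each point 1 gene, with dotted lines at 2-fold. The 69 genes higher on day 3 than on both days are red and extend to IL24 at 6.25 and 5.18, whereas the 9 lower genes are blue and lie close to the limits. Both axes share the day 3 library.

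The limit passes through a continuum. Just inside it were PKMYT1, whose lesser ratio was 2.02, and OAS2 (2.01), and just outside were CMPK2 (1.998) and LTB (1.99). In the other direction BUB1 had a lesser ratio of 2.03 and PRKCA of 2.06, and ITGBL1 (1.96) and RNA45SN2 (1.93) fell just short. Of the 69 higher genes, 56 had at least 10 CPM on day 0 or day 7 as well, and 13 passed the limit on mean level only through day 3. The gene lists, which were chosen with earlier results of these data known, held 37 of the 69 and 5 of the 9. Their share of all genes was not counted.

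Of 21 cytokines and chemokines listed, 12 passed the limit on level. On day 3, 10 were higher than on both days (37.4% of all genes), 6 of them at least 2-fold (0.690% of all). None was lower than both (28.5% of all). Of the 12, IL24, IL6, CXCL5 and CXCL2 were under 10 CPM on days 0 and 7 and passed only through day 3, so that they had to be higher there. Of the 8 without them, 6 were higher and 2 past 2-fold, with median log2 ratios of 0.80 and 0.52. Over the 12 the median log2 ratio was 1.49 to day 0 and 1.26 to day 7, beside 0.06 and 0.01 over all genes. Besides IL24, IL6 and CXCL8, the 6 included CXCL5 (7.46, 41.0 and 9.51 CPM on days 0, 3 and 7), CXCL6 (24.3, 90.8 and 31.3 CPM) and CXCL2 (6.06, 20.9 and 7.19 CPM), all ligands of neutrophil chemokine receptors. CSF2, which encodes the growth factor GM-CSF, was under the limit on mean level with 1.65, 10.7 and 1.31 CPM. Not every cytokine took this course. IL1B was level at 36.7, 33.5 and 33.3 CPM, and LIF stood at 99.7 CPM on day 0, 200.0 on day 3 and 204 on day 7, so that its day 7 level was as high as that of day 3.

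The CXC chemokine genes lie together on chromosome 4 (hg38), from CXCL8 at 73740569 to CXCL2, which ends at 74099196, followed by genes for ligands of the epidermal growth factor (EGF) receptor. Within this stretch CXCL8, CXCL6, CXCL5 and CXCL2 were past 2-fold to both days, and CXCL1 had 166 CPM on day 0, 380.4 on day 3 and 193 on day 7, a 2.29-fold and 1.97-fold difference. CXCL3 was under the limit on level with 3.06, 19.6 and 3.83 CPM. Reads of CXCL1, CXCL2 and CXCL3, which are nearly identical in sequence, may have been divided between them, so their single values are uncertain. MTHFD2L, which lies between the chemokines and the EGF receptor ligands, was lower on day 3, with 29.7, 25.3 and 30.2 CPM. Beyond it, EPGN had 38.3, 92.2 and 30.6 CPM, a 2.41-fold (2.21 to 2.62) and 3.02-fold (2.74 to 3.32) difference, and AREG had 103, 183 and 91.0 CPM. In all, 21 of the 78 genes had another of them within 500 kb, among them RELB and BCL3, MX1 and MX2, IFIT1 and IFIT3, IFI44 and IFI44L, and SESN2 and SNHG12. ATF3 with DTL, ISG15 with RNF223 and IL32 with PKMYT1 count among them too. The share was not counted over all genes, so the count does not show clustering.

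NF-kB subunits and feedback targets were higher on day 3 than on both days for 15 of 17 genes measured (37.4% of all genes), and none was lower than both (28.5% of all). Past 2-fold were TNFAIP3, which encodes the ubiquitin-editing inhibitor A20 (21.2, 108 and 33.3 CPM on days 0, 3 and 7), the subunit RELB (23.9, 74.2 and 25.5 CPM), the apoptosis inhibitor BIRC3 (21.4, 81.8 and 32.3 CPM) and the co-activator BCL3 (21.3, 54.4 and 25.6 CPM). NFKB2 was 2.47-fold and 1.65-fold and NFKBIA 1.35-fold and 1.32-fold higher. NFKBIZ was an exception, with 93.4 CPM on day 0, 94.4 on day 3 and 184 on day 7. The median log2 ratio of the list was 0.64 to day 0 and 0.51 to day 7.

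The immediate early and AP-1 list was higher on day 3 for 16 of 19 genes (37.4% of all) and lower for 2 (28.5% of all). ATF3, JUN (61.3, 136 and 67.2 CPM) and the phosphatase DUSP1, which switches off MAP kinases (18.8, 57.0 and 15.5 CPM), passed 2-fold. JUNB was 1.74-fold and 1.88-fold higher and KLF6 1.69-fold and 1.61-fold. FOS had 22.5, 14.95 and 13.1 CPM, so that it was highest on day 0, and MYC had 142, 143 and 115 CPM. FOSL1, an AP-1 subunit, had 815 CPM on day 0, 1164 on day 3 and 892 on day 7.

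Promoter sequences of RefSeq (GRCh38.p14), 250 bases before each start site, were at hand for 59 of the 69 higher genes, 8 of the 9 lower genes and 8282 of all 10000. The NF-kB motif was found on either strand in 10 of 59 promoters (16.9%), against 6.04% of all, and the AP-1 motif TGANTCA in 6 of 59 (10.2%), against 3.71%. The cAMP response element TGACGTCA stood in 5 of 59 (8.47%), against 3.07%, and IL32 held both this element and NF-kB matches. Some holders passed the limit on level only through day 3, namely IL6, CXCL5, CXCL2 and ZNF670 (NF-kB) and IL1RN, RUNX2 and LYPD1 (AP-1). All matches describe the letters only. The 140 bases before the start site are printed for 4 genes of the cytokine and NF-kB lists, with the matches in capitals. The genes are CXCL8 (chr4:73740429-73740568, plus strand), IL6 (chr7:22727060-22727199, plus strand), CXCL2 (chr4:74099196-74099335, minus strand) and TNFAIP3 (chr6:137867119-137867258, plus strand). CXCL8 has an AP-1 match of the patterns searched, and the others have NF-kB matches. Related letters outside the patterns stay small and were not counted, such as tggaatttcc in CXCL8, which resembles the CXCL2 match. A promoter without a match may therefore still hold a related site.
CXCL8: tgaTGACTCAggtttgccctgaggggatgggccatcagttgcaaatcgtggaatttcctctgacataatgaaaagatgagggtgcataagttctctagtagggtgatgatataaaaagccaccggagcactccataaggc
IL6: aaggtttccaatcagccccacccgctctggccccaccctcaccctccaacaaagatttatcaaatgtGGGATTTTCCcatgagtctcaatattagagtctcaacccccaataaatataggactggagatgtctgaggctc
CXCL2: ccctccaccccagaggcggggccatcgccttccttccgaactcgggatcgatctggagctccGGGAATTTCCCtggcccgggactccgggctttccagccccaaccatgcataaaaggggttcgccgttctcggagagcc
TNFAIP3: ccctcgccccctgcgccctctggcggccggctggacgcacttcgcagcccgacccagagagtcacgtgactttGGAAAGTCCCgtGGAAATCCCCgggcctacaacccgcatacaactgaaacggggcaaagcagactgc
In CXCL2 the capitals hold 2 overlapping matches, which start 78 and 77 bases before the start site, and in TNFAIP3 2 separate ones start 67 and 55 bases before it.

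Other genes among the highest ratios encode secreted and signalling proteins. PLAU, the urokinase plasminogen activator, had 701 CPM on day 0, 2464 on day 3 and 834 on day 7, a 3.52-fold (3.45 to 3.58) and 2.96-fold (2.90 to 3.01) difference. INHBA, which encodes the subunit of activin A, had 137, 477 and 171 CPM, a 3.49-fold (3.34 to 3.64) and 2.79-fold (2.68 to 2.90) difference. Both were highest of all 7 libraries in untreated day 3. PLAUR, the receptor of urokinase, did not share the course of PLAU, with 82.0, 80.2 and 80.7 CPM. Of the 22 TGF-beta, activin and BMP genes measured, 7 were higher (37.4% of all genes) and 8 lower (28.5% of all) than on both days. INHBA alone was past 2-fold. The list's median log2 ratio to day 0 was 0.05 and changed sign with the scaling of libraries. KRTAP2-3, a keratin-associated protein, had 5.96, 35.3 and 2.99 CPM, which made it 11.8-fold (9.002 to 15.8) higher than day 7. KRTAP2-3 too passed the limit on level only through day 3, so that it had to be higher there. RGS4, a brake on G protein signalling (11.2, 38.0 and 10.3 CPM), and the transcription factor GATA6 (10.3, 31.6 and 10.8 CPM) were at the same level on days 0 and 7 within counting error.

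**Figure D2:**
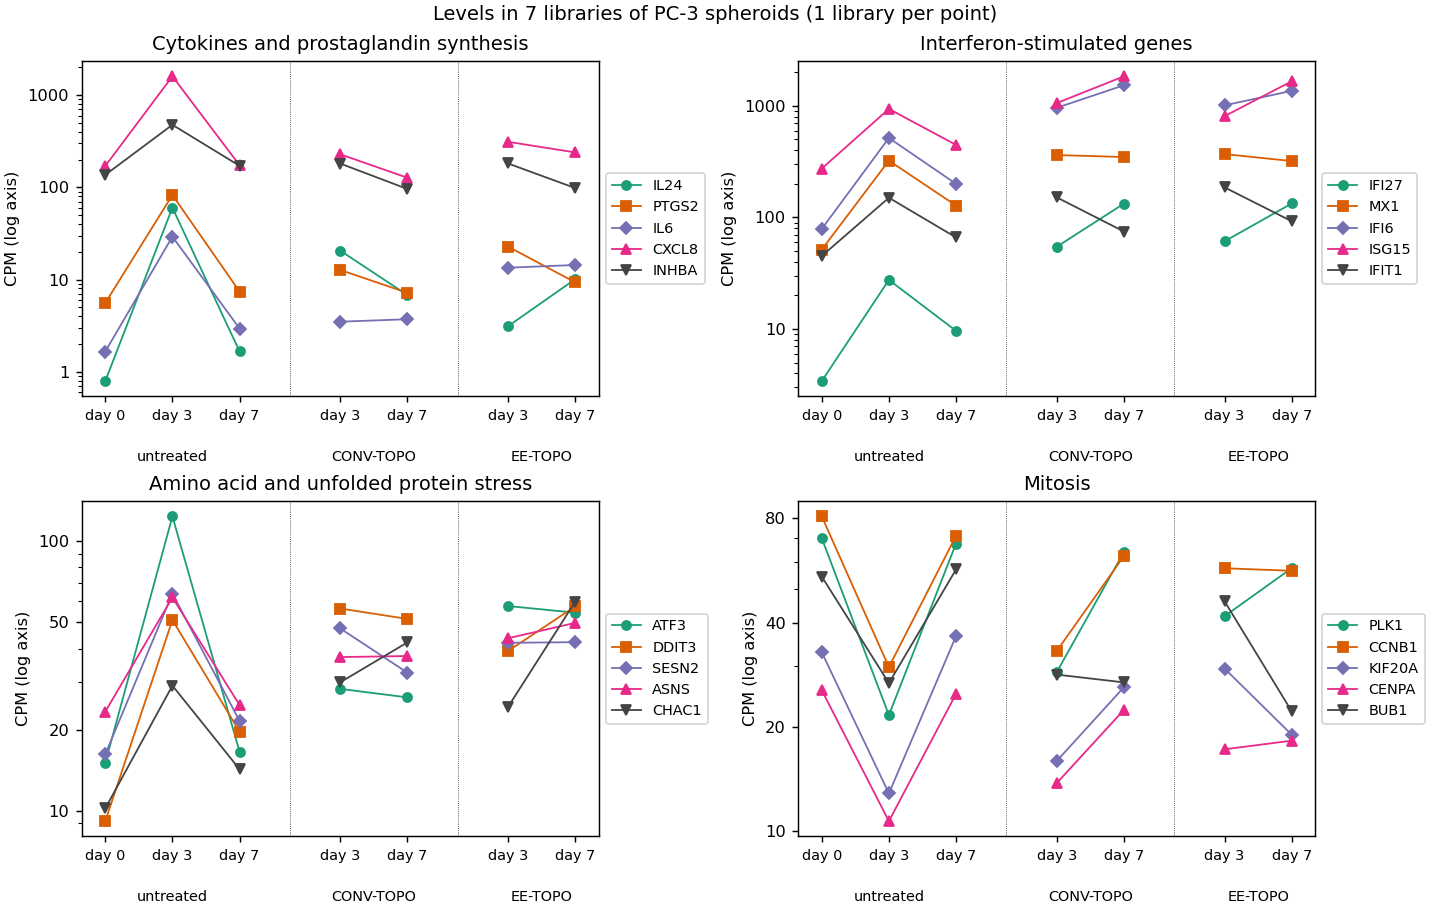
CPM on a log axis of 20 genes in 7 libraries, 1 library per point, with lines joining the days of a treatment. In untreated spheroids the genes of the first 3 panels peak on day 3, as in CXCL8 at 1600.3 CPM, and those of the mitosis panel are lowest there, as in PLK1 at 21.6 CPM.

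Interferon-stimulated genes were the list with the most members past 2-fold. All 30 genes listed were measured and were higher on day 3 than on both days beyond counting error (2001 of all 10000 genes). Of them, 22 were higher by at least 1.5-fold (2.39% of all genes) and 11 by at least 2-fold (0.690% of all). IFI27 alone of the 30 was under 10 CPM on both other days. The median log2 ratio was 1.61 to day 0 and 0.92 to day 7. IFI27 had 3.41, 27.5 and 9.61 CPM on days 0, 3 and 7, an 8.08-fold (6.27 to 10.6) and 2.86-fold (2.42 to 3.41) difference. IFI6 had 78.8, 515.7 and 200.0 CPM, and MX1, a GTPase against viruses, had 51.5, 323 and 128 CPM. ISG15, a ubiquitin-like modifier, had 274, 939 and 447 CPM, a 3.43-fold (3.32 to 3.53) and 2.10-fold (2.05 to 2.16) difference. Day 7 lay between the other days for these 4 genes. OASL was an exception, with 15.4 CPM on day 0, 59.2 on day 3 and 17.01 on day 7, where days 0 and 7 did not differ beyond counting error. The others past 2-fold were IFIT1, IFIT3, IFI44, IFI44L, OAS2 and IRF9, the DNA-binding subunit of the factor activated by type I interferon (31.6, 96.5 and 46.1 CPM). STAT2, which acts with IRF9, had lesser ratios, with 112, 216 and 188 CPM. HLA-B, of antigen presentation, had 77.2, 228 and 156 CPM. Further genes known to respond to interferon stood among the 69 outside the list and were picked out after their values were seen. RSAD2 had 12.1, 62.8 and 23.6 CPM, MX2 7.06, 49.7 and 22.8 CPM, and USP18, which removes ISG15 from proteins, 8.37, 24.1 and 11.3 CPM.

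The interferon response element, searched on both strands, was present in 7 of the 9 interferon-list promoters at hand for the higher genes and in 2.17% of all promoters. The list was composed of known responders, so this share describes the list. The promoters of IFIT1 (chr10:89392483-89392622, plus strand), ISG15 (chr1:1013357-1013496, plus strand) and IFI6 (chr1:27672193-27672332, minus strand) are shown because each holds more than 1 match, in capitals.
IFIT1: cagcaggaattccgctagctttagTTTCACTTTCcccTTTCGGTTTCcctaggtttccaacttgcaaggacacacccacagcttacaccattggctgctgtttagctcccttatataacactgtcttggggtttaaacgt
ISG15: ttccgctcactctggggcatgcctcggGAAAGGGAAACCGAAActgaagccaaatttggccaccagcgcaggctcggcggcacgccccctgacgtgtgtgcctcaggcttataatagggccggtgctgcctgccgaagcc
IFI6: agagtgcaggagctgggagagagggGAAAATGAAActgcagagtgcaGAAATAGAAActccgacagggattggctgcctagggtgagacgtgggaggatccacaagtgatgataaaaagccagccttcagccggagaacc
In ISG15 the 2 matches overlap and lie on the reverse strand, at 113 and 107 bases before the start site. In IL24, which is no member of the list, 1 match starts 83 bases before the start site.

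The integrated stress response and serine synthesis list was higher on day 3 for 19 of 21 genes (37.4% of all). Past 1.5-fold were 11 (2.39% of all) and past 2-fold 5 (0.690% of all). The median log2 ratio of the list was 0.74 to day 0 and 0.78 to day 7. DDIT3, the stress factor CHOP, had 9.17, 51.1 and 19.7 CPM on days 0, 3 and 7, a 5.57-fold (4.75 to 6.56) and 2.59-fold (2.30 to 2.93) difference. SESN2, which restrains the kinase mTORC1 when leucine is short, had 16.2, 64.0 and 21.6 CPM. ASNS, asparagine synthetase, had 23.4, 61.9 and 24.7 CPM, with days 0 and 7 equal within counting error. CHAC1, which degrades glutathione (10.2, 29.2 and 14.3 CPM), and PPP1R15A, the phosphatase subunit that ends the response (164, 333 and 105 CPM), completed the 5. Both are close to the limit, since PPP1R15A fell below 2-fold to day 0 with libraries scaled by TMM (log2 ratio 0.97) or median of ratios (0.96), and CHAC1 fell below 2-fold to day 7 with a pseudocount of 1 CPM (0.98). CEBPB was 1.95-fold and 1.97-fold and TRIB3 1.79-fold and 1.78-fold higher. ATF4 itself, which is controlled mainly at translation, had 199.6, 243 and 231 CPM. SLC7A11, the cystine transporter, was the 1 gene of the list below both days, with 82.6, 73.2 and 87.6 CPM. The ATF4 recognition motif TGATGNAA stood in 4 of the 59 promoters (6.78%), those of ATF3, ASNS, IL7R and CHAC1, against 1.26% of all. The ASNS promoter (chr7:97872409-97872548, minus strand), with the match in capitals, is the example.
ASNS: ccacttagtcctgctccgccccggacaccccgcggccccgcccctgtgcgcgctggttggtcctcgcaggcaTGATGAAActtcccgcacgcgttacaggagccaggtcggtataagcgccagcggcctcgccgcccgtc

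Genes of the endoplasmic reticulum folding list, which the same organelle stress can induce and which include XBP1, did not share this course. Of 13 genes, 10 were lower on day 3 than on both days (28.5% of all genes), all 10 beyond counting error (1366 of all 10000). Higher than on both days were 2 (37.4% of all). HSPA5, the main luminal chaperone BiP, had 949, 676 and 868 CPM on days 0, 3 and 7, which put day 3 at 0.712 of day 0 (0.696 to 0.729) and 0.779 of day 7 (0.761 to 0.797). MANF had 170.3, 104 and 116 CPM. XBP1 was higher on day 3, with 108, 139 and 106 CPM, and ERN1, the sensor kinase that splices its transcript, was among the 69 genes with 23.8, 92.5 and 42.2 CPM. Heat shock proteins were lower than on both days for 7 of 15 genes (28.5% of all) and higher for 3 (37.4% of all), with none past 1.5-fold.

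**Figure D3:**
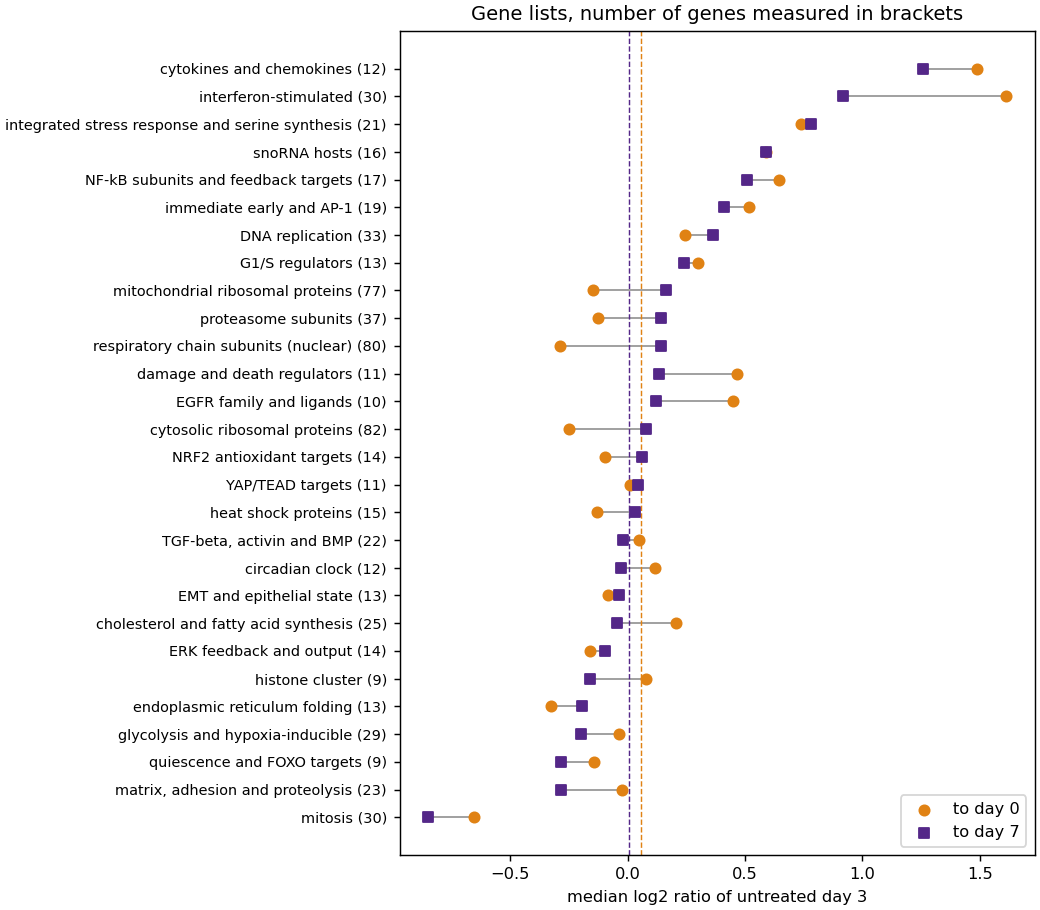
Median log2 ratio of untreated day 3 to day 0 (circles) and to day 7 (squares) for 28 gene lists with at least 9 genes measured, the number of genes in brackets, and dashed lines at the medians of all genes. Cytokines lie at 1.49 and 1.26, interferon-stimulated genes at 1.61 and 0.92, and mitosis at the low end with -0.65 and -0.85.

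Of the 9 genes that were 2-fold lower, 5 belonged to the mitosis list. PLK1, the kinase of mitotic entry and spindle assembly, had 70.1 CPM on day 0, 21.6 on day 3 and 67.6 on day 7, so that day 3 was at 0.308 of day 0 (0.276 to 0.345) and 0.319 of day 7 (0.285 to 0.358). CCNB1, the mitotic cyclin, had 81.0, 29.7 and 71.2 CPM. KIF20A, a kinesin of cytokinesis, had 32.8, 12.8 and 36.6 CPM. CENPA, the histone of centromeres, had 25.5, 10.7 and 24.9 CPM, and BUB1, a kinase of the spindle checkpoint, 54.3, 26.7 and 56.9 CPM. Untreated day 3 was the lowest of 7 libraries for the first 4 of these genes. For BUB1, EE-TOPO day 7 was lower with 22.2 CPM, and its call ended with a pseudocount of 1 CPM (log2 ratio -0.996 to day 0). Of the 30 mitosis genes, 27 were lower on day 3 than on both days (28.5% of all genes), 24 of them beyond counting error (1366 of all 10000). At least 1.5-fold lower were 15 (0.960% of all genes), and the list had median log2 ratios of -0.65 and -0.85. AURKB (16.2, 18.3 and 16.1 CPM) and UBE2C (50.4, 58.1 and 54.2 CPM) were among the 3 that were higher. CDK1 was only slightly lower, with 106, 92.4 and 116 CPM.

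DNA replication genes went the other way. Of 33 measured, 26 were higher on day 3 than on both days (37.4% of all genes), 19 of them beyond counting error (2001 of all 10000). Lower were 2 (28.5% of all), with median log2 ratios of the list of 0.24 and 0.36 and none past 2-fold. RRM2, the ribonucleotide reductase subunit, had 167, 319.7 and 168 CPM on days 0, 3 and 7. CDC6 was 1.61-fold and 1.79-fold and CDT1 1.59-fold and 1.91-fold higher, both factors that license replication origins. PCNA had 113, 110.4 and 99.5 CPM and so was not highest on day 3. EXO1, a nuclease of mismatch repair (13.9, 31.3 and 14.2 CPM), and DTL, the ubiquitin ligase adaptor that removes CDT1 (29.3, 67.7 and 26.3 CPM), were among the 69. PKMYT1, the kinase that holds CDK1 inactive, had 21.5, 48.2 and 23.9 CPM. CDKN1A, the inhibitor p21, had 48.1, 117 and 59.1 CPM, a 2.43-fold and 1.98-fold difference. GADD45A had 108, 247 and 97.9 CPM. Whether fewer cells were in mitosis or each held less of these transcripts cannot be told apart in bulk RNA, and the same holds for the other lists.

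The CHR element TTTGAA stood in 9 of the 14 promoters at hand for mitosis genes past 1.5-fold lower and in 7.79% of all promoters, and the CCAAT box in 14 of 14 against 35.5%. The list was composed of known mitosis genes, so these shares describe the list and not the change on day 3. Among the other 58 promoters of genes past 1.5-fold lower the shares were 17.2% and 31.0%. The promoters of PLK1 (chr16:23678749-23678888, plus strand), CENPA (chr2:26785916-26786055, plus strand) and CCNB1 (chr5:69167010-69167149, plus strand) are shown with both elements in capitals, where CCAAT on the reverse strand reads ATTGG.
PLK1: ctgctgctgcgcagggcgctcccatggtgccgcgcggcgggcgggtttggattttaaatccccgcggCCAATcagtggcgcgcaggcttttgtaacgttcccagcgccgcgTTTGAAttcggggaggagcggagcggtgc
CENPA: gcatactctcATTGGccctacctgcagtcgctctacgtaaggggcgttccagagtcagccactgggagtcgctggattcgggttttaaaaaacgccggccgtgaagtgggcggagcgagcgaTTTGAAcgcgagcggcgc
CCNB1: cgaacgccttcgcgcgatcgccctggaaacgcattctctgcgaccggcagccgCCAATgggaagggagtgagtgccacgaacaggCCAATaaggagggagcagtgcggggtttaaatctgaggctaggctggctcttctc
CCNB1 holds 2 CCAAT boxes and no TTTGAA match in this window.

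The other 4 lower genes were PLXNA4 (22.2, 7.93 and 25.4 CPM on days 0, 3 and 7), a semaphorin co-receptor, NEGR1 (13.4, 5.49 and 12.6 CPM), a neuronal adhesion protein, ALPP (37.5, 14.4 and 29.8 CPM), placental alkaline phosphatase, and PRKCA (87.3, 40.9 and 84.4 CPM), protein kinase C alpha. Except for ALPP, which spans 4.14 kb, these are long genes, with 525 kb for PLXNA4, 887 kb for NEGR1 and 508 kb for PRKCA. At 1.5-fold, 96 genes were lower than on both days, with a median span of 196 kb against 29.6 kb for all 9984 genes with a usable span. Of the 96, 15 were in the mitosis list, 40 spanned at least 300 kb, and 26 were neither in that list nor at least 100 kb long. Of all 283 genes of at least 300 kb, 14.1% were 1.5-fold lower, against 0.537% of the 2049 genes under 10 kb. Examples were AGAP1 (103, 54.8 and 102 CPM), LRBA (72.9, 41.2 and 77.0 CPM) and KCNMA1 (707, 428 and 662 CPM), picked after their values were seen. The 69 higher genes had a median span of 16.05 kb. Across genes, the rank correlation of span with the log2 ratio was -0.07 for day 3 to day 0, -0.38 for day 3 to day 7 and 0.33 for day 7 to day 0, where genes share libraries and are not independent. The relation with span therefore differs between the ratios, and its part in the lower genes was not tested. After centring on genes of similar span, 60 genes were higher and 8 lower, 58 and 7 of them among the 69 and 9.

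**Figure D4:**
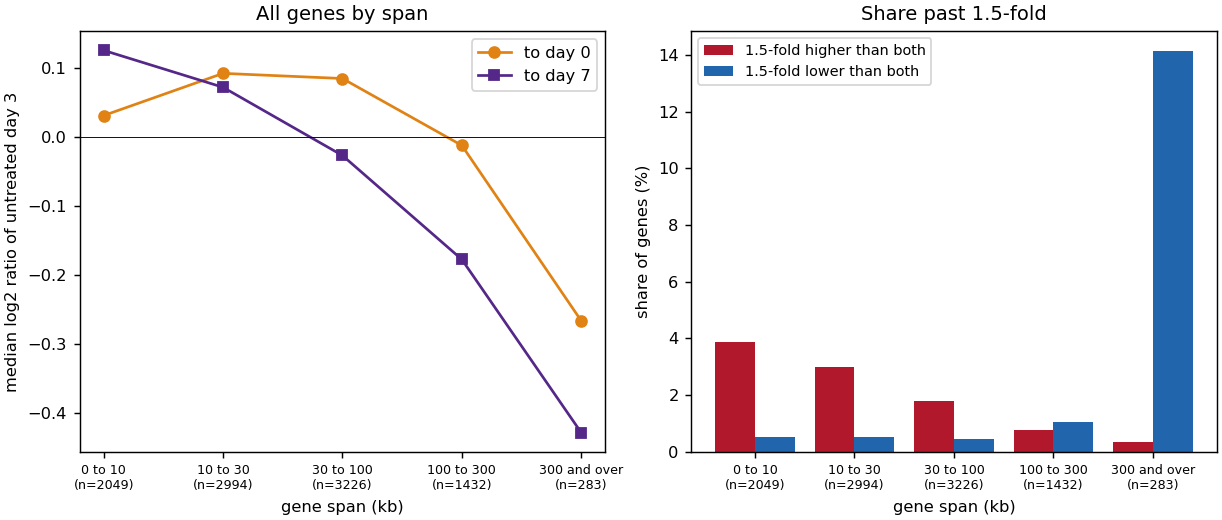
Left, median log2 ratio of untreated day 3 to day 0 and to day 7 in 5 bins of gene span. Right, share of genes in each bin past 1.5-fold in both ratios. Genes of at least 300 kb have medians of -0.27 and -0.43 and hold the largest share of lower genes, 14.1%.

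Small nucleolar RNA host genes, whose spliced transcripts are degraded by nonsense-mediated decay, were higher on day 3 for 10 of 16 (37.4% of all genes) and lower for 3 (28.5% of all), those 3 beyond counting error, with median log2 ratios of 0.59 and 0.59. SNHG15 (11.1, 29.6 and 10.9 CPM) and SNHG12 (5.36, 20.6 and 8.56 CPM) were past 2-fold, and SNHG1 had 21.7, 64.6 and 36.3 CPM. SNHG12 was under 10 CPM on days 0 and 7 and passed the limit on level only through day 3. Of the 15 host genes without it, 9 were higher, 1 past 2-fold, and 3 lower, with median log2 ratios of 0.54 and 0.54. TXNIP, which restrains glucose uptake, was among the 69 with 264, 669 and 331 CPM, whereas the quiescence and FOXO target list that holds it was higher for 2 of 9 genes and lower for 4. CLDN1, a tight junction protein, had 29.5, 92.1 and 33.8 CPM, and the EMT list around it was higher for 3 of 13 genes and lower for 6. Glycolysis and hypoxia-inducible genes were lower for 11 of 29 and higher for 4, with none past 1.5-fold, and median log2 ratios of -0.04 and -0.20. Cytosolic ribosomal proteins were lower for 30 of 82 and higher for 9, and their medians pointed in opposite directions, -0.25 to day 0 and 0.08 to day 7. The shares of all genes, 37.4% higher and 28.5% lower, stand beside each of these lists.

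Levels on day 7 did not return to those of day 0 for every gene. Of the 69 higher genes, 21 had a day 7 level within counting error of day 0, 42 were above it and 6 below it. Of the 11 genes on the interferon list, 10 were above day 0 on day 7, as in IFI27, which was 2.82-fold higher on day 7 than on day 0. CXCL8, ATF3, ASNS, RELB and GATA6 were among the 21. PPP1R15A and KRTAP2-3 were below day 0 on day 7, at 0.639 and 0.502 of it. Of the 9 lower genes, 6 were within counting error of day 0 on day 7. The same shares were not counted over all genes, so these counts do not set the 69 or the 9 genes apart from others.

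The 4 treated libraries were not used to choose the genes and share no library with the untreated ratios, so they show how the same genes stood on day 3 against day 7 under topotecan. In CONV-TOPO, 53 of the 69 genes were higher on day 3 than on day 7 (76.8%), against 65.7% of all genes, and 18 were at least 2-fold higher (15.7% of all). In EE-TOPO, 39 were higher (56.5%), against 63.1% of all genes, and 14 at least 2-fold (19.4% of all). The median log2 ratio of day 3 to day 7 over all genes was 0.30 in CONV-TOPO and 0.29 in EE-TOPO, and that of the 69 genes was 0.65 and 0.10. With libraries scaled by TMM, 46 of the 69 were higher on day 3 in CONV-TOPO (66.7%), against 50.8% of all genes, and 30 in EE-TOPO (43.5%), against 50.9% of all genes. The CONV-TOPO share lay above that of all genes and the EE-TOPO share below it. In both regimens 39 were higher (59.1% of all). Of the 9 lower genes, 4 were lower on day 3 in CONV-TOPO (34.3% of all) and 2 in EE-TOPO (36.9% of all), the same 2 being lower in both (30.3% of all). At least 2-fold lower were 1 in CONV-TOPO (2.30% of all) and 0 in EE-TOPO (3.92% of all).

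By gene, CXCL8, INHBA, IL24 and IL6 were lower in all 4 treated libraries than in untreated day 3. They were chosen for a high level in that library, so lower levels elsewhere follow in part from the choice. An effect of the drug was not tested. CXCL8 had 228 CPM in CONV-TOPO and 312 in EE-TOPO on day 3, and 127 and 239 on day 7, against 1600.3 in untreated day 3. INHBA had 181 CPM in both regimens on day 3 and 96.0 and 98.1 on day 7. IL24 had 20.6 CPM in CONV-TOPO on day 3 and 6.78 on day 7, but 3.12 and 10.1 in EE-TOPO. IL6 had 3.49 CPM on day 3 and 3.71 on day 7 in CONV-TOPO and 13.4 and 14.4 in EE-TOPO. CXCL5 differed from these, with 43.5 CPM in EE-TOPO on day 3 against 41.0 in untreated day 3. Of the 11 genes on the interferon list, 7 were above untreated day 3 on day 3 of both regimens (39.3% of all genes), such as MX1 at 362 CPM in CONV-TOPO and 369.8 in EE-TOPO against 323. ISG15 reached 1060.3 CPM on day 3 and 1841 on day 7 in CONV-TOPO. ATF3 had 28.4 and 57.5 CPM on day 3 in CONV-TOPO and EE-TOPO. PLK1 had 28.8 CPM on day 3 and 63.9 on day 7 in CONV-TOPO, the direction of the untreated libraries, and 41.7 and 57.4 in EE-TOPO. Untreated day 3 was the highest of all 7 libraries for 34 of the 69 genes (13.5% of all genes) and the lowest for 6 of the 9 (4.34% of all genes). These shares count untreated libraries that the rule used.

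**Figure D5:**
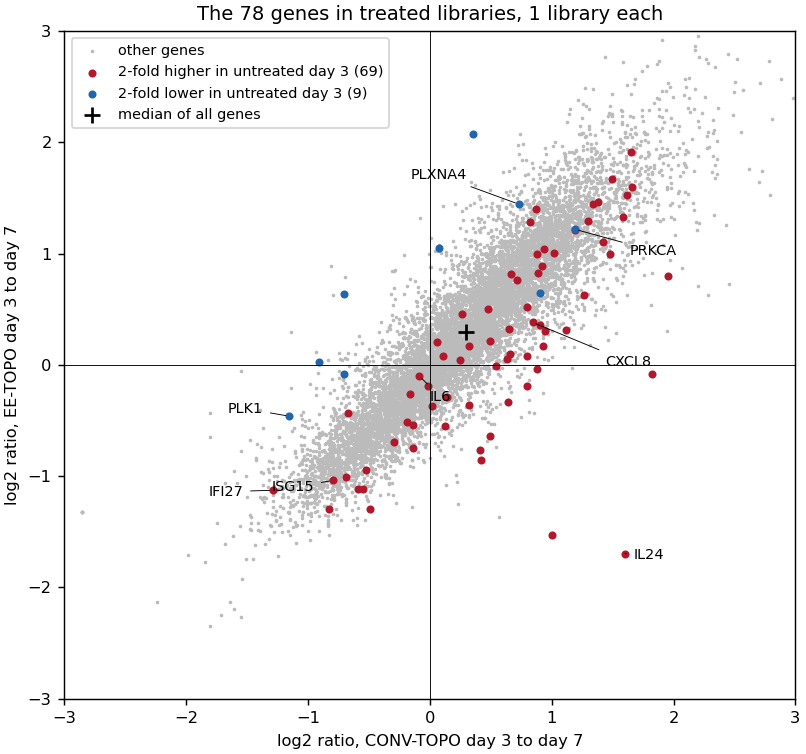
Log2 ratio of day 3 to day 7 in CONV-TOPO (horizontal) and EE-TOPO (vertical) for the 69 higher genes (red), the 9 lower genes (blue) and other genes (grey), each regimen with 1 library per day, on axes limited to 3 in either direction, which leaves out 34 grey genes. The cross marks the median of all genes at 0.30 and 0.29, and IL24 lies at 1.60 and -1.70.

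Reads of overlapping genes limit some values, since the strand setting of the counting was not given in the sources used here and 16 of the 78 genes overlap another listed gene. They include IL24 with FCMR, IL6 with IL6-AS1, TNFAIP3 with WAKMAR2, PLAU with C10orf55, INHBA with INHBA-AS1, DDIT3 with MARS1 and KIF20A with CDC23, where reads of both partners could not be separated without strand.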

How the data were processed

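RNA from PC-3 spheroids was sequenced in 7 libraries used here, 1 for each treatment and day. Libraries were matched to groups by the identifier in each label. Reads were aligned by the authors with STAR to hg38 and summed per gene, and the deposited values are CPM to which 0.0001 had been added, an offset subtracted here. The submitters' processing notes name Partek. The annotation and strand setting are not given in the sources used here. CPM of low genes lie on steps of 1 read, which gave 15.02 M to 22.5 M reads (M, 1000000 reads) per library, and 88.7% to 90.1% of low values were whole to within 0.02 reads, too few for a test on counts. The depth allows 3 reads, or 0.134 to 0.200 CPM, for a gene listed at 0. With 1 library per group no test was run. Ratios have exact 95% conditional binomial intervals of the estimated reads, which cover counting error only.

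Genes whose mean over the untreated libraries reached 10 CPM were compared, and a gene was called at 2-fold or more to both days. Genes named in the text are CXCL8, IL24, INHBA and ATF3, the 15 genes with the largest lesser ratio in each direction, list members past 2-fold or otherwise up to 4 with the largest lesser ratio or the highest level, and the 2 genes on either side of the limit in each direction. Genes outside this rule, picked after their values were seen, include SLC7A11, ATF4, STAT2, HLA-B, MYC, FOS, FOSL1, LIF, IL1B, CSF2, CXCL3, AREG, MTHFD2L, PLAUR, ERN1, EXO1, DTL, CDK1, AURKB, UBE2C, PCNA, NFKB2, NFKBIA, NFKBIZ, JUNB, KLF6, CEBPB, TRIB3, CXCL1, MANF, MX2, RSAD2, USP18, IL7R, AGAP1, KCNMA1, LRBA, SNHG1, SNHG12 and SNHG15, besides the markers used to check the cell line. A few genes are not reported here. The members and lists were chosen with earlier results of these data known, and motifs after the values were seen. One further list, of mitochondrially encoded genes, had no gene in the table. Alternatives covered scaling by TMM or median of ratios, the limits on level and ratio, and a pseudocount of 1 CPM. Gene spans are from the deposited coordinates, and 50 listed spans over 2500 kb, which join copies of a name, were left out. The steps ran in Python (3.11.15) with scipy (1.17.1), pandas (2.3.3), matplotlib (3.10.9) and numpy (2.4.6) and were tested on simulated data.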

Additional observations from a re-analysis of the deposited data

Results flagged for a closer look

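For 8 of the 78 genes, untreated spheroids differed between day 3 and day 7 in one direction by at least 2-fold and both topotecan regimens differed in the opposite direction by at least 1.5-fold. These differences between treatments were not tested, as each rests on 1 library per treatment and day. The median of all genes was 0.30 in CONV-TOPO and 0.29 in EE-TOPO on the same log2 scale. In both regimens 59.1% of all genes were higher on day 3 than on day 7 and 30.3% lower, at any size. The flag was applied to the 78 genes only, so its share over all genes at that size was not counted. At any size, 16 of the 69 higher genes (30.3% of all) went the opposite way in both regimens. Of the 9 lower genes, 5 did so (59.1% of all). The flag used CPM without further scaling of libraries. The interferon-stimulated gene IFI27 had log2 ratios of day 3 to day 7 of -1.28 in CONV-TOPO and -1.13 in EE-TOPO, and ISG15 had -0.80 and -1.04, so that both were higher on day 7 than on day 3 under drug. IL32, a cytokine, had -0.59 and -1.12. PKMYT1, the kinase that inhibits CDK1, had -0.69 and -1.01, and TMEM265 had -0.83 and -1.30. Among the genes that were lower on untreated day 3, PLXNA4 had 0.73 in CONV-TOPO and 1.45 in EE-TOPO, PRKCA had 1.19 and 1.22, and ALPP had 0.91 and 0.64.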

How the results depend on the processing

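No paired analysis was possible because each group has 1 library. For the same reason no library could be left out. With a ratio of 1.5 in place of 2, 239 genes were higher and 96 lower on day 3, and with a ratio of 3, 11 and 1. Without a limit on level the counts were 342 and 153, and with 5 CPM the lower genes numbered 17. Where the whole counting interval had to lie past 2-fold, 40 and 4 genes remained of the 69 and 9. Scaling by TMM or by median of ratios gave 66 higher genes, all among the 69, and 10 lower ones, which hold the 9. The calls of PPP1R15A, CCDC9 and RNF223 ended there. A pseudocount of 1 CPM gave 62 and 7, and BUB1 and ALPP were the lower genes lost, so that 4 mitosis genes were left. Requiring 10 CPM on day 0 or day 7 as well, chosen after seeing the data, gave 56 and 9. For day 0 these scalings gave 1 gene higher than both other days in place of 0, and for the lower genes in CONV-TOPO 2 (TMM) and 4 (median of ratios) at least 2-fold lower on day 3 than on day 7 in place of 1. Centring on genes of similar span, an alternative chosen after seeing the data, gave 60 and 8. None of the 300 ratios of named genes under TMM, median of ratios or a pseudocount of 1 CPM changed sign, and 289 stayed within their counting interval. The causes were not tested. With 1 library per day, biological and technical spread is unknown, and intervals of ratios are too narrow to stand for it.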
